A study of Mus musculus with 4 samples.

Results

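The genes described here were 8 rows of a count table of 50559 genes, chosen by name: the TD and POZ domain genes Tdpoz1, Tdpoz2, Tdpoz3, Tdpoz4 and Tdpoz5 on chromosome 3, and the 2-cell-stage variable group genes Tcstv1 and Tcstv3 with their relative AF067063 on chromosome 13. They were measured by poly(A)+ RNA-seq in E14 cells, a line of mouse embryonic stem cells (ESCs), in 4 libraries, 1 for each group. All cells carried a lentiviral hairpin and, per the methods of the study, a tdTomato transgene driven by the promoter of the retrovirus MERVL, and were grown with leukemia inhibitory factor. The control, shscr_EV, had a scrambled hairpin and an empty vector. The knockdown, shYthdf2_EV, had a hairpin against Ythdf2 and the empty vector. The other two groups kept the Ythdf2 hairpin and received YTHDF2, in the wild-type form in shYthdf2_WT and in a form mutated so that it no longer binds m6A in the library titled shYtdhf2_Mut, which is written shYthdf2_Mut here. Hairpin lines were selected with puromycin, and which of the hairpins against Ythdf2 was used is not given in the sources used here. No group had a second library, so every difference below lacks a check against replicates and carries no p-value. The 95% intervals cover counting error only.

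A small and changing fraction of ESCs passes into a state that resembles the 2-cell embryo, the stage at which the mouse genome is first broadly transcribed. In that state the transcription factor DUX switches on MERVL and many genes that lie in tandem arrays, and the Tdpoz and Tcstv arrays are among them. Tdpoz genes encode proteins with a TRAF-like (MATH) domain and a BTB/POZ domain, and are relatives of Spop, which brings substrates to a cullin-3 ubiquitin ligase. Tcstv genes encode short proteins of the 2-cell embryo, and forced expression of Tcstv1 or Tcstv3 is known to lengthen telomeres in ESCs. YTHDF2 is a cytoplasmic protein that binds mRNA carrying N6-methyladenosine (m6A) and leads it to decay. The comparisons ask what the array genes did when YTHDF2 was depleted, and whether adding back the wild-type or the mutated protein returned them. In bulk RNA, more cells in the 2-cell-like state and more RNA per cell cannot be told apart.

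On the mm39 assembly of the count table, Tdpoz2 lay at chr3:93558849-93559993 and Tdpoz1 at chr3:93576640-93583590 on the minus strand, Tdpoz4 at chr3:93703705-93704817 and Tdpoz3 at chr3:93733327-93734424 on the plus strand, and Tdpoz5 at chr3:93867599-93868621 on the minus strand. AF067063 lay at chr13:120289497-120291753 and Tcstv1 at chr13:120354923-120356321 on the minus strand, and Tcstv3 at chr13:120778398-120779797 on the plus strand. Tdpoz2, Tdpoz3, Tdpoz4 and Tdpoz5 were each annotated as 1 exon, and the other members as 2. Read counts are sums over exons. Reads were 150 bases long, and reads that aligned to several places were not counted, so how far copies differ within a read decides what could be seen of each gene. The first 150 coding bases are shown for this reason, from GENCODE vM21 transcripts. Capitals mark bases that differ from the first sequence of each group, or that have no partner in it, in a global alignment.
Tcstv3: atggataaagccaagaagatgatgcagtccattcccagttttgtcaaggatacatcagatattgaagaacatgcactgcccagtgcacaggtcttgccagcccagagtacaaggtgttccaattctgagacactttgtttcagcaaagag
Tcstv1: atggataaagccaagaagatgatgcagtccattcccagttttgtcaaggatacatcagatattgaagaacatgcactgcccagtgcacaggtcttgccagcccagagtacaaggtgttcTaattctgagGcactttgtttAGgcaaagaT
AF067063: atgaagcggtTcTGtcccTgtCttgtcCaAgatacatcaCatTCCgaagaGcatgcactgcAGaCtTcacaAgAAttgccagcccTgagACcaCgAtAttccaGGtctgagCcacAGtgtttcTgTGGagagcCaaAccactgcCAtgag
Tdpoz3: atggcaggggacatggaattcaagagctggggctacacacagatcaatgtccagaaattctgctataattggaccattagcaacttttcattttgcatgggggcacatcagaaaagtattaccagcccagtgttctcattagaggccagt
Tdpoz4: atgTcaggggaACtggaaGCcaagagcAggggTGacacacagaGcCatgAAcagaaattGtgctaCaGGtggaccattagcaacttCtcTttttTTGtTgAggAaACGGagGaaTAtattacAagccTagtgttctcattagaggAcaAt
Tdpoz5: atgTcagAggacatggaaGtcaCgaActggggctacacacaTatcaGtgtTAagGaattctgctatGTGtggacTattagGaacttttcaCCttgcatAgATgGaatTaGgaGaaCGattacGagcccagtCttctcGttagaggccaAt

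Over the whole coding sequence, Tcstv1 and Tcstv3 were 93.6% identical, and AF067063 was 77.8% identical to Tcstv1 and 79.0% to Tcstv3. Among the Tdpoz members the closest pair was Tdpoz1 and Tdpoz3, at 88.5%, and the most distant was Tdpoz4 and Tdpoz5, at 73.4%. Each Tdpoz member was 67.7% to 71.5% identical to Spop, and 57.7% to 60.9% to its paralog Spopl. The coding sequences held 1020 to 1110 bases in Tdpoz members and 489 to 513 bases in Tcstv members.

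The copies outside the list were closer still. Tdpoz5 was identical over its coding sequence to Tdpoz7, and every 150-base window of its transcript occurred also in another annotated gene. For the other members, the share of windows found in no other GENCODE transcript was 100% for Tcstv1 and Tcstv3, 93.5% for Tdpoz4, 91.2% for Tdpoz2, 87.6% for Tdpoz1, 66.6% for Tdpoz3 and 53.3% for AF067063. The windows that Tdpoz3 shared, 33.4% of its own, were shared with Gm4982, and the 46.7% of AF067063 were shared with Gm21731. A count of Tdpoz5 near 0 is therefore no measure of its expression, and reads of Tdpoz3 and AF067063 can be undercounted, to a degree that was not measured. Windows were taken from transcripts of GRCm38, not mm39, and copies that are not annotated as transcripts were not compared.

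**Figure D1:**
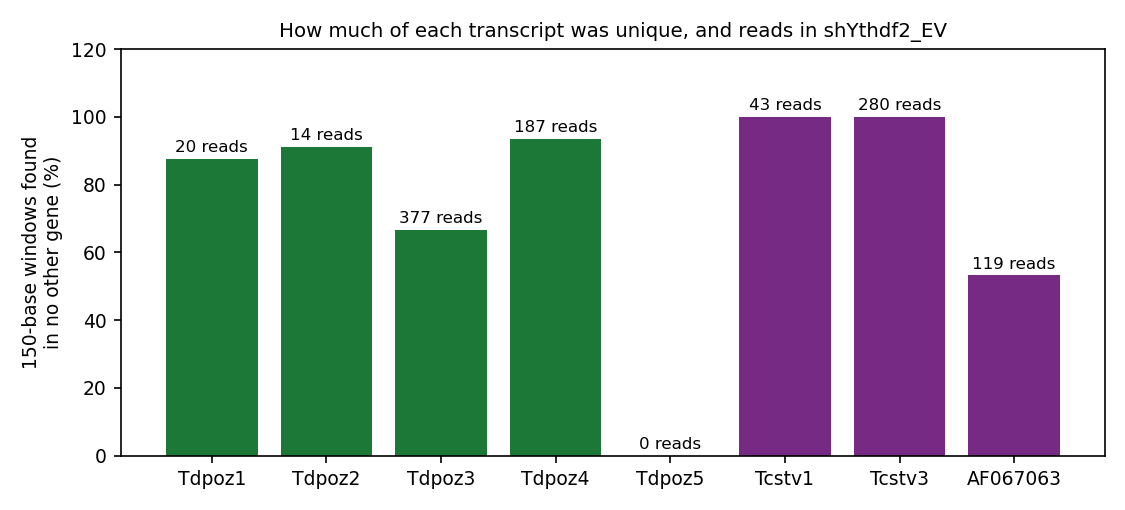
Bars give, for each member, the percentage of 150-base windows of its longest transcript that occurred in no other annotated gene; the number above each bar is its read count in shYthdf2_EV. Tdpoz5 stands at 0% and had 0 reads, while Tcstv1 and Tcstv3 stand at 100%.

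Promoter sequence from RefSeq on GRCm38.p6 was given for Tdpoz1, Tdpoz4 and Tdpoz5 among the members, and for the relatives Tdpoz7, Tdpoz8, Tdpoz9, AF067061 and Gm21761. Tdpoz2, Tdpoz3, Tcstv1, Tcstv3 and AF067063 had no entry. The 150 bases before the annotated start are shown for Tdpoz1, as the one member among the promoters compared, and for its relative Tdpoz9 and the Tcstv relatives AF067061 and Gm21761. Capitals mark GATTTAATC and the 4 longest runs, of 10 bases each, that the promoters of Tdpoz1, Tdpoz8, Tdpoz9, AF067061 and Gm21761 had in common.
Tdpoz1 (chr3:93676284-93676433, minus strand): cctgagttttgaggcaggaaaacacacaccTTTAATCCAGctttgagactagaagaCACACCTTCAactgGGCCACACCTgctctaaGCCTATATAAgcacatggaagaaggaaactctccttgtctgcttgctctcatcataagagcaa
Tdpoz9 (chr3:94054886-94055035, minus strand): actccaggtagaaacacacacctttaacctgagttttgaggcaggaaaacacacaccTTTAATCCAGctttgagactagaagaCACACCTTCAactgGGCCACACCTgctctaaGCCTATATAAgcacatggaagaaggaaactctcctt
AF067061 (chr13:120262945-120263094, plus strand): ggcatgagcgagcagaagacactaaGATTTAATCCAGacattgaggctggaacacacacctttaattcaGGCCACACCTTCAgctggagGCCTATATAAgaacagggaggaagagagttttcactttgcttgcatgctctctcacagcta
Gm21761 (chr13:119913469-119913618, minus strand): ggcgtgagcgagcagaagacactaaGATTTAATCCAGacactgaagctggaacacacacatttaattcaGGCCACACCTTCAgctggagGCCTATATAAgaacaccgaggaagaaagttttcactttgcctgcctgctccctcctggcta

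The core of the DUX site, GATTNAATC, was searched on both strands in the 250 bases before to 50 bases after the start. It was in 88 of 32851 promoters, or 0.268%. AF067061 and Gm21761 each had 1 match, GATTTAATC, beginning 125 bases before the start, and none of the 3 member promoters had one. For Tdpoz4 and Tdpoz5 the annotated start was the first coding base. Transcription of these genes may start further upstream, outside the bases searched, so the lack of a match there decides nothing. In Tdpoz1 the matching stretch began with TTTAATCCAG, 120 bases before the start, where the Tcstv relatives had GATTTAATCCAG. This run of 10 bases was in 34 promoters, or 0.103%, and the other runs, CACACCTTCA, GGCCACACCT and GCCTATATAA, in 40, 183 and 38 promoters, or 0.122%, 0.557% and 0.116%. CACACCTTCA and GGCCACACCT overlapped in AF067061 and Gm21761 and lay apart in the Tdpoz promoters. The runs were chosen after the sequences were seen. Entries of Tdpoz4, Tdpoz5 and Tdpoz7 and a further entry of Tdpoz8 were not among the promoters compared, and held none of these runs. The exact letters TATAAA, in 13.6% of promoters, were in none of the member promoters. A near match, TATATAA, lies within the run GCCTATATAA of Tdpoz1 and was not searched for, so the presence of a TATA box was not decided. The promoters of Tdpoz5 and Tdpoz7 differed at 1 of 300 bases. These are matches of letters, and binding at them was not measured here.

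Ythdf2 itself followed the labels. It had 2806 reads in shscr_EV, 662 in shYthdf2_EV, 7661 in shYthdf2_WT and 6925 in shYthdf2_Mut, so the knockdown library held 20.7% of the control level, and the wild-type and mutant libraries held 2.62 and 2.45 times the control level. The mutant library had 93.5% of the Ythdf2 level of the wild-type library (89.3% to 98.0%). Library totals were 31533129 to 35742335 reads, and 3 reads, the floor used here, were worth 0.0835 to 0.0949 CPM (counts scaled to the library size). The 6 ESC markers (Pou5f1, Nanog, Sox2, Zfp42, Esrrb and Klf4) summed to 3478 to 3733 CPM, and their log2 ratios of shYthdf2_EV to shscr_EV were -0.12 to 0.58. Summed markers of primitive endoderm were at 12.8 CPM in shscr_EV, 15.7 in shYthdf2_EV, 9.63 in shYthdf2_WT and 14.7 in shYthdf2_Mut. Of the 4 with a mean count of at least 10, 2 were at least 2-fold lower in the wild-type than in the knockdown library. Of all 18586 genes with that mean count, 5.58% were. Summed markers of trophectoderm were at 61.4, 43.3, 59.1 and 50.1 CPM in the same order, the reverse of the order of the summed array genes. Single markers differed: Krt8 had 1217, 670, 1193 and 553 reads in that order, and Eomes 675, 841, 668 and 961. In the knockdown against the control, Krt8 and Elf5 (4 reads against 14) were at least 2-fold lower. Cdx2 stood at a log2 ratio of 0.26, Eomes at 0.13 and Gata3 at -0.03, and the median of the 5 markers was -0.03. Summed markers of fibroblasts were at 10.9 to 16.5 CPM. The part of these cell types in the results was not tested. Reads of 7 Y-linked genes were 4 in shscr_EV, 672 in shYthdf2_EV, 105 in shYthdf2_WT and 602 in shYthdf2_Mut, the same order as for the summed array genes, and their part in the results was not tested.

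Expression of both arrays was low in the control and higher in the knockdown. The 5 Tdpoz genes together had 144 reads in shscr_EV, 598 in shYthdf2_EV, 158 in shYthdf2_WT and 436 in shYthdf2_Mut. The 3 Tcstv genes together had 101, 442, 162 and 238 reads in the same order. The libraries thus fell in the same order for both sums, with the knockdown highest, then the mutant, then the wild-type and then the control. Of 8 members, 7 had a higher CPM in the knockdown than in the control, and Tdpoz5 had none in either.

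Tdpoz3 was the most abundant Tdpoz member. It had 107 reads in shscr_EV, 377 in shYthdf2_EV, 96 in shYthdf2_WT and 308 in shYthdf2_Mut, and its intervals separated the control and wild-type libraries from the knockdown and mutant libraries. Tdpoz4 had 34, 187, 61 and 118 reads in that order, and each library with the Ythdf2 hairpin was above the control, the wild-type library by a log2 ratio of 0.78 whose interval spanned 0 (-0.12 to 1.73). Tdpoz8, a close relative of Tdpoz4 that is not a member, had 30, 133, 34 and 98 reads.

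The remaining Tdpoz members were near the floor. Tdpoz1 had 0 reads in shscr_EV, 20 in shYthdf2_EV, 0 in shYthdf2_WT and 7 in shYthdf2_Mut. Tdpoz2 had 3, 14, 1 and 2 reads in the same order. Reads of both were highest in the knockdown library. Tdpoz5 had 1 read, in shYthdf2_Mut, as did its copy Tdpoz7. Tdpoz9, a near copy of Tdpoz1 with a coding identity of 98.5%, had 2, 15, 1 and 2 reads, and the pseudogene Tdpoz9-ps1 had 8, 8, 7 and 13.

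Among the Tcstv members, Tcstv3 had 66 reads in shscr_EV, 280 in shYthdf2_EV, 107 in shYthdf2_WT and 156 in shYthdf2_Mut. AF067063 had 34, 119, 42 and 73 reads in the same order. In both genes the mutant library stood between the wild-type and the knockdown. Tcstv1 had 1, 43, 13 and 9 reads, and was the one member with fewer reads in the mutant than in the wild-type library. Its counts are small, and without the knockdown library its mean would be under the minimum of 10. The other 4 members that passed had at least 34 reads in every library.

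**Figure D2:**
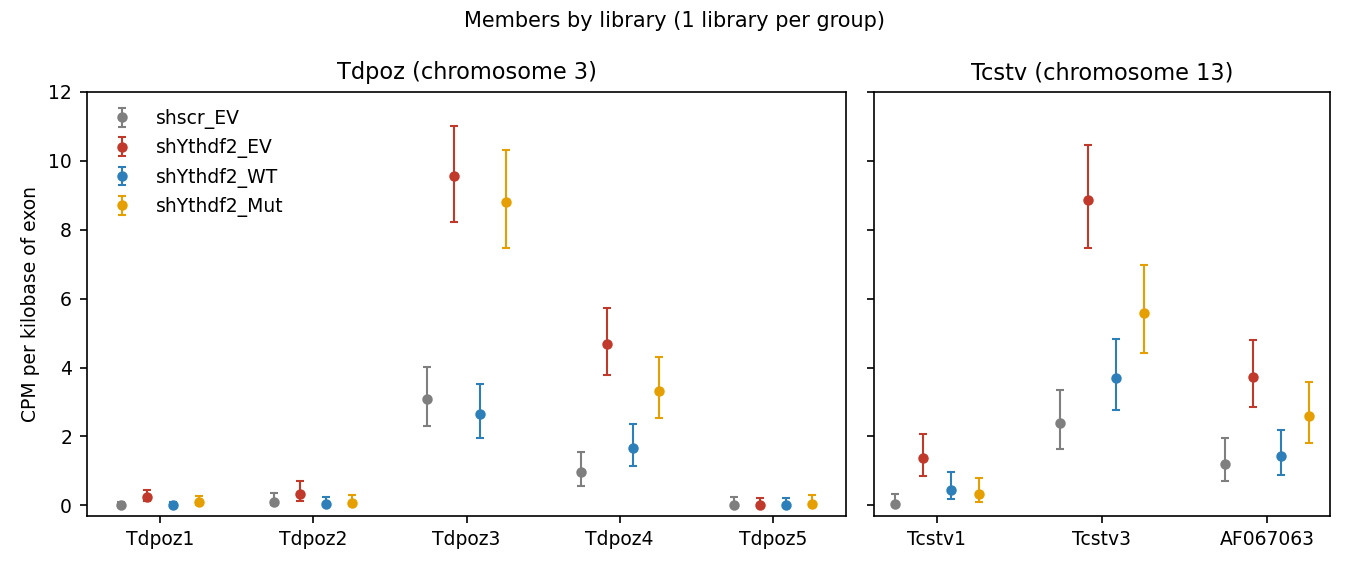
Points give CPM per kilobase of exon for each member in the 4 libraries, and bars give exact 95% Poisson intervals on read pairs, which cover counting error only. Tdpoz3 and Tcstv3 are the highest members, at 9.55 and 8.87 in shYthdf2_EV, and Tdpoz3 in shYthdf2_Mut stays near its knockdown level while Tcstv3 stands lower.

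Per kilobase of exon, the levels in shYthdf2_EV ran from Tdpoz3 (9.55 CPM per kilobase, 8.24 to 11.0) and Tcstv3 (8.87, 7.46 to 10.5), whose intervals overlapped, to Tdpoz4 (4.67, 3.77 to 5.72) and AF067063 (3.74, 2.85 to 4.81), which overlapped as well. Tcstv1 followed at 1.37, then Tdpoz2 at 0.340 and Tdpoz1 at 0.242. In shscr_EV the first 2 were again Tdpoz3 and Tcstv3, at 3.08 and 2.38 CPM per kilobase, with overlapping intervals. In shYthdf2_Mut, Tdpoz3 was at 8.82 (7.48 to 10.3) and Tcstv3 at 5.59 (4.42 to 6.97), and these levels no longer overlapped. These levels take no account of the windows that each gene shares with its copies.

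Within each array, the shares of reads that single members gave were compared between libraries. Tdpoz3 gave 74.3% of Tdpoz reads in shscr_EV (Clopper-Pearson interval 62.6% to 83.9%), 63.0% in shYthdf2_EV (57.3% to 68.5%), 60.8% in shYthdf2_WT (49.1% to 71.6%) and 70.6% in shYthdf2_Mut (64.1% to 76.6%), and all 4 intervals overlapped. Tcstv3 gave 63.3% to 66.0% of Tcstv reads in the 4 libraries. The share of Tcstv1 was 0.990% in shscr_EV (up to 8.88%), 9.73% in shYthdf2_EV (6.16% to 14.4%), 8.02% in shYthdf2_WT (3.15% to 16.2%) and 3.78% in shYthdf2_Mut (1.15% to 8.96%), so the wild-type share lay close to that of the knockdown.

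Depletion of YTHDF2 came with higher levels of the members of both arrays. The summed Tdpoz reads were 3.65-fold higher in shYthdf2_EV than in shscr_EV, a log2 ratio of 1.86 (2.81-fold to 4.79-fold), and the summed Tcstv reads 3.85-fold, a log2 ratio of 1.94 (2.82-fold to 5.33-fold). The ratios of the 2 arrays differed by -0.08 on the log2 scale (Tdpoz minus Tcstv, -0.70 to 0.51). Of the 5 members with a mean count of at least 10, all 5 were at least 2-fold higher, where 7.10% of the 18586 genes tested were. Tcstv1, 1 of the 5, passed this filter only through its reads in the knockdown library, so its call here is not separate from the filter. Tdpoz4 stood at 2.26 on the log2 scale (1.52 to 3.11), Tcstv3 at 1.89 (1.34 to 2.49), Tdpoz3 at 1.63 (1.19 to 2.10) and AF067063 at 1.61 (0.82 to 2.49). The intervals of the pairwise differences among these 4 members spanned 0. Tcstv1, from 1 read to 43, was 37.8-fold higher with an interval from 3.67-fold upward, and its size depended on the prior count, with log2 ratios of 4.69 at 0.5 and 2.88 at 5. Tdpoz1, with no read in the control, was at least 5.86-fold higher when 3 reads are taken as the floor in the control library, and its counting interval began at 1.97-fold. Tdpoz2, at 14 reads against 3, had a ratio of 4.10 with an interval from 0.67 to 66.7.

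**Figure D3:**
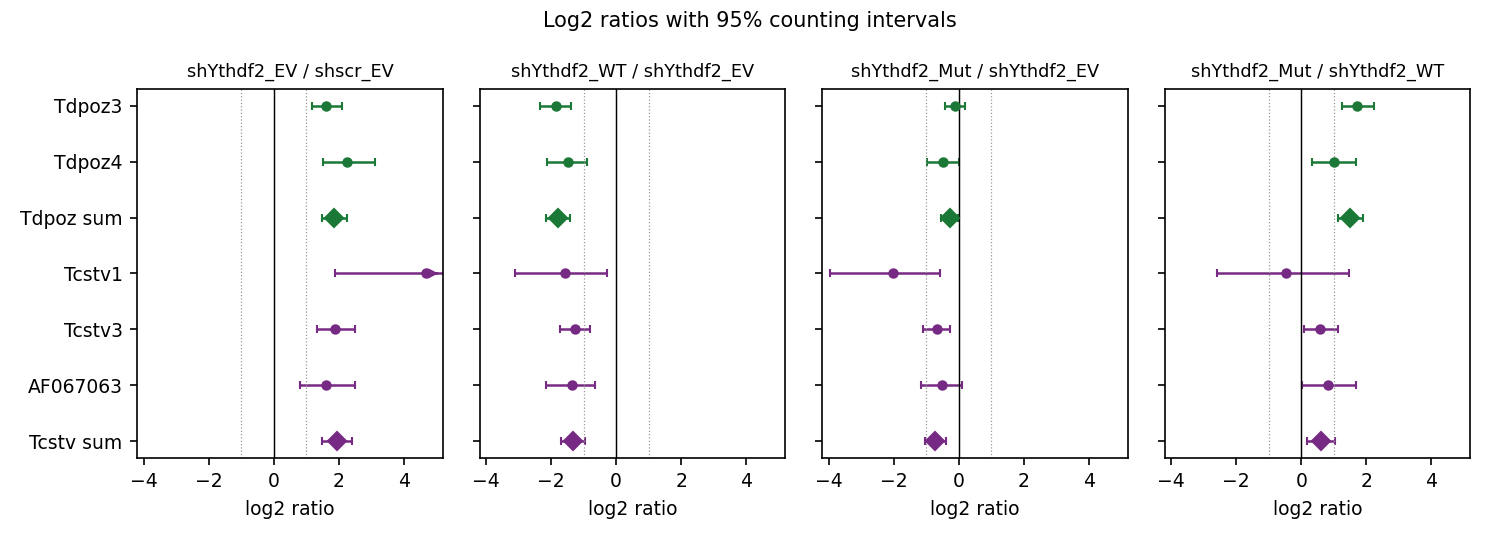
Log2 ratios of the 5 members past the filter (circles) and of the summed arrays (diamonds) in 4 comparisons, with 95% Clopper-Pearson intervals on read pairs; dotted lines mark 2-fold, green is Tdpoz and purple Tcstv. The upper end of Tcstv1 in the first panel lies beyond the axis. In the last panel the Tdpoz sum stands at 1.51 and the Tcstv sum at 0.60.

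Adding back wild-type YTHDF2 came with lower levels of both arrays. Summed Tdpoz reads in shYthdf2_WT were 28.9% of those in shYthdf2_EV (log2 ratio -1.79, -2.17 to -1.43), and summed Tcstv reads were 40.0% (-1.32, -1.71 to -0.95). All 5 members past the filter were at least 2-fold lower, where 5.58% of tested genes were. Tcstv1, 1 of the 5, passed the filter only through the knockdown library. The Tdpoz sum was then at 1.05 times the control (0.76 to 1.47), an interval that spans no difference, and the Tcstv sum at 1.54 times the control (1.07 to 2.23). The difference between the arrays was -0.55 on the log2 scale against the control (Tdpoz minus Tcstv, -1.29 to 0.16), and -0.47 against the knockdown (-1.01 to 0.06). Against the control, 1 of the 5 members, Tcstv1, was still at least 2-fold higher, at 13 reads against 1, where 3.82% of tested genes were, and the interval of its log2 ratio of 3.13 spanned 0 (-0.06 to 13.8). Tdpoz3 was the lowest of the 4 abundant members relative to the knockdown, at 27.8% (19.8% to 38.4%), and Tcstv3 the highest, at 41.7% (29.9% to 57.6%), and these intervals overlapped. Tdpoz1 had no read left and was at least 6.10-fold lower when 3 reads are taken as the floor in the wild-type library, and its counting interval reached up to 48.7% of the knockdown. The comparisons with shYthdf2_EV share that library, as those with shscr_EV share theirs, so an extreme value in either library would move them together.

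With the mutated YTHDF2, the sum of the Tcstv reads stood lower relative to the knockdown than that of the Tdpoz reads did. Summed Tdpoz reads in shYthdf2_Mut were 82.4% of the knockdown (log2 ratio -0.28, -0.54 to -0.02), and summed Tcstv reads were 60.9% (-0.72, -1.05 to -0.39). Of the 5 members, 1 was at least 2-fold lower, where 3.38% of tested genes were. That member was Tcstv1, from 43 reads to 9 (23.7%, 6.48% to 66.8%), which passed the filter only through the knockdown library. Tdpoz3 stood at 92.3% of its knockdown level (74.1% to 115%), Tdpoz4 at 71.3% (50.6% to 99.8%), AF067063 at 69.3% (44.6% to 106%) and Tcstv3 at 63.0% (47.1% to 83.6%). Tdpoz1, at 7 reads against 20, stood at 39.6% (8.10% to 144%), and Tdpoz2, at 2 reads against 14, at 16.1% (0.36% to 126%), both with intervals that spanned no difference. Tdpoz4 and AF067063 differed by 0.04 on the log2 scale (-0.74 to 0.88). The difference between the summed arrays in this comparison was 0.44 on the log2 scale (Tdpoz minus Tcstv), with an interval of 0.02 to 0.86. Without Tcstv1 it was 0.35 and the interval spanned 0 (-0.08 to 0.79).

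Set against the wild-type library, the mutant library had 2.86 times the summed Tdpoz reads (log2 ratio 1.51, 1.14 to 1.90) and 1.52 times the summed Tcstv reads (0.60, 0.19 to 1.03). The ratio was larger for Tdpoz by 0.91 on the log2 scale, with an interval of 0.33 to 1.49, and by 0.84 (0.25 to 1.43) without Tcstv1. Of the 5 members, 1 was at least 2-fold higher, where 5.40% of tested genes were, so the count of members past 2-fold says little here. That member was Tdpoz3, at 1.73 (1.26 to 2.23). Tdpoz4 stood just under the limit at 1.00 (0.35 to 1.68), AF067063 at 0.84 (0.03 to 1.70) and Tcstv3 at 0.59 (0.07 to 1.12), while Tcstv1 stood at -0.46 (-2.60 to 1.49). Tdpoz3 and Tcstv3 differed by 1.14 on the log2 scale (0.43 to 1.88), and the other 5 pairs among the 4 abundant members had intervals that spanned 0. Against the control, all 5 members were at least 2-fold higher in the mutant library, where 6.55% of tested genes were, with the Tdpoz sum at 3.01 times the control (2.29 to 3.98) and the Tcstv sum at 2.34 times (1.67 to 3.32).

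The ratios that involve the wild-type library also varied with base composition. Over 16726 tested genes with a GENCODE transcript, 90.0% of those tested, Spearman's rho between GC content and the log2 ratio of shYthdf2_Mut to shYthdf2_WT was -0.394, and for shYthdf2_WT to shYthdf2_EV it was 0.337, against -0.0635 for the knockdown and -0.161 for the mutant against the knockdown, all given as a description. The 8 members had 43.7% to 48.8% GC, with Tdpoz3 at 47.9% and Tcstv3 at 48.7%. Tested genes within 1 percentage point of Tdpoz3 had a median log2 ratio of 0.05, and those within 1 point of Tcstv3 had 0.02, below the ratios of these 2 members. In the wild-type against the knockdown the medians were -0.03 and -0.01, beside log2 ratios of -1.84 for Tdpoz3 and -1.26 for Tcstv3.

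The arrays hold more copies than the 8 members. By nucleotide alignment to GENCODE transcripts, 19 other rows of the table were relatives of Tdpoz members and 7 of Tcstv members. Of the Tdpoz relatives 15 had a mean count of at least 10, and 11 of these were at least 2-fold higher in the knockdown, against 7.10% of tested genes, with a median log2 ratio of 1.93. In the wild-type against the knockdown library 14 of 15 were at least 2-fold lower (median -1.66), against 5.58% of tested genes, while with the mutant none was, against 3.38%, and 1 was higher (median -0.21). Of the Tcstv relatives 5 had a mean count of at least 10, and all 5 were at least 2-fold higher in the knockdown (median 1.97) and at least 2-fold lower in the wild-type library (median -1.55). With the mutant none of the 5 was at least 2-fold lower, and the median was -0.56. The median over all tested genes was within 0.01 of 0 in these comparisons. Which copy a read came from is uncertain throughout.

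Among the Tcstv relatives, Gm21761 was the most abundant, with 1696 reads in shscr_EV, 9235 in shYthdf2_EV, 2837 in shYthdf2_WT and 5302 in shYthdf2_Mut. Gm20767 had 608, 2703, 868 and 1621 reads, and AF067061, whose coding sequence was 95.3% identical to that of Tcstv1, had 109, 506, 158 and 362. All 3 had the mutant library between the wild-type and the knockdown. On the Tdpoz side, Gm9113 had 59, 279, 81 and 159 reads, and Gm4982, which shares windows with Tdpoz3, had 5, 36, 6 and 45. Spop, the relative outside the array, had 1964, 2908, 2274 and 2392 reads, a log2 ratio of 0.38 in the knockdown (0.26 to 0.50), and Spopl was at 0.05 (-0.19 to 0.28).

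A difference between the arrays was also present in the summed relatives alone. Without the members and Spop, the sum of 18 Tdpoz rows stood at 1.47 on the log2 scale in the mutant against the wild-type, and that of 7 Tcstv rows at 0.99. The difference was 0.48 (0.22 to 0.75), smaller than the 0.91 of the members. Against the knockdown, the mutant ratios were -0.28 for Tdpoz rows and -0.58 for Tcstv rows, a difference of 0.29 (0.11 to 0.47). In the knockdown comparison itself the summed Tdpoz relatives stood at 1.65 and the summed Tcstv relatives at 2.13, a difference of -0.47 (-0.73 to -0.22). Gm21761 had 9235 of the 13993 reads of Tcstv members and relatives in shYthdf2_EV, so 1 row carried most of that sum. Medians of single relatives with a mean count of at least 10, Spop included, were 1.93 for Tdpoz and 1.97 for Tcstv in the knockdown. In the mutant against the wild-type they were 1.56 and 1.17, and single rows overlapped (0.12 to 5.41 and 0.95 to 1.75). Members and relatives together, 23 Tdpoz rows and 10 Tcstv rows, gave mutant to wild-type ratios of 1.48 (1.28 to 1.70) and 0.98 (0.90 to 1.05). Multi-copy relatives share sequence with members, so these sums are not independent of the members' reads.

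Position within the arrays was examined next. The span from the first to the last Tdpoz member was 309.8 kb and held 12 rows, of which 5 had a mean count of at least 10. Of these 5, Tdpoz3, Tdpoz4 and Gm9113 were at least 2-fold higher in the knockdown, against 7.10% of tested genes. Gm5852 and Gm5773, which lie between Tdpoz1 and Tdpoz4, were at 0.13 and -0.07 on the log2 scale, with 12 to 15 reads in both libraries. All 5 were at least 2-fold lower in the wild-type than in the knockdown library, against 5.58% of tested genes. Gm5852 had 4 reads there against 15, and Gm5773 had 0 against 13, both at or near the floor. Without the members, 1 of 3 rows was at least 2-fold higher in the knockdown, and all 3 were lower in the wild-type library. The span of the Tcstv members was 490.3 kb and held 31 rows, of which 13 had a mean count of at least 10. Of these 13, 11 were at least 2-fold higher in the knockdown, against 7.10% of tested genes. Without the members it was 8 of 10. The rows that did not pass were Gm21378, at -0.28, and Gm20900, at 0.90.

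**Figure D4:**
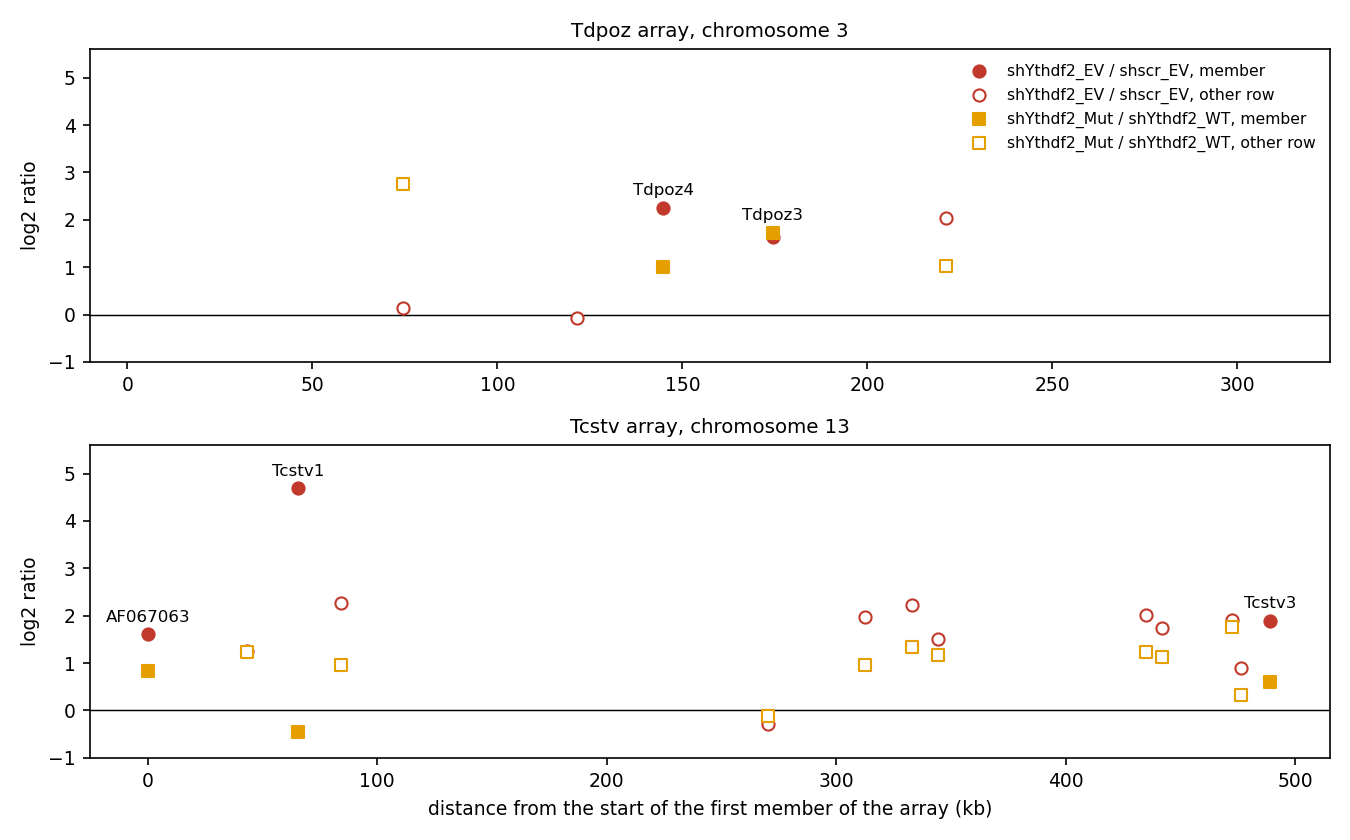
Log2 ratios of rows with a mean count of at least 10 along each array, by distance in kilobases from the start of its first member; red circles are shYthdf2_EV over shscr_EV and orange squares shYthdf2_Mut over shYthdf2_WT, filled for members. Ratios against a library with 0 reads (Gm5773 in shYthdf2_WT) are not drawn. In the Tcstv array 11 of 13 rows stand above 1 in red, where 7.10% of all tested genes do.

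Unrelated genes next to the arrays did not pass 2-fold in the knockdown. On chromosome 3 the nearest with a mean count of at least 10 were S100a10, S100a11 and Tchh below the Tdpoz members and Them4, Them5 and Tdrkh above them, at 86.9 to 452 kb, with log2 ratios in the knockdown of 0.05 to 0.67. On chromosome 13 they were Zfp131, Gm41077 and Nim1k, at 36.4 to 72.1 kb, with ratios of -0.37 to 0.23. No such row lay above Tcstv3. S100a10, which encodes a protein of the S100 family, had 2426, 3454, 2783 and 2516 reads, and Zfp131, a zinc finger gene, 1154, 1542, 1081 and 1500.

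Other genes of the 2-cell state were compared with the arrays. In a list of 50 such genes outside the members, which included the Tcstv relatives Gm20767 and Gm21761 and in part genes that the study displays for these libraries, 47 had a mean count of at least 10. Of these, 39 were at least 2-fold higher in the knockdown (median log2 ratio 1.61, against 7.10% of tested genes) and 37 at least 2-fold lower in the wild-type library (median -1.40, against 5.58%). With the mutant, 1 was at least 2-fold lower than in the knockdown (median -0.24, against 3.38%), and 28 were at least 2-fold higher than in the wild-type library (median 1.09, against 5.40%). Duxf3, the mouse Dux gene, had 10 reads in shscr_EV, 46 in shYthdf2_EV, 16 in shYthdf2_WT and 18 in shYthdf2_Mut. Zscan4c, a zinc finger gene of the 2-cell state, had 834, 3279, 1023 and 2503 reads, and Zfp352, a retroposed zinc finger gene of the same stage, 109, 422, 97 and 314. Duxf3 was the one of these 3 whose mutant library was close to the wild-type (log2 ratio 0.21, -1.33 to 1.79), at few reads.

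The difference in log2 ratio between the Tdpoz sum and Zscan4c or Zfp352 had an interval that spanned 0 in the knockdown, in either library against the knockdown, and in the mutant against the wild-type. In the last of these it was 0.17 against Zscan4c (-0.23 to 0.59) and -0.23 against Zfp352 (-0.88 to 0.38). The Tcstv sum stood below Zscan4c by 0.74 on the log2 scale in the mutant against the wild-type (0.28 to 1.18 below) and by 0.50 in the mutant against the knockdown (0.16 to 0.86 below). Against Zfp352 it stood lower by 1.14 (0.50 to 1.81) and 0.47 (0.01 to 0.92) in the same comparisons. In the wild-type against the knockdown it stood above Zfp352 by 0.67 (0.08 to 1.30). In the knockdown comparison the intervals between either array and either gene spanned 0.

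Genes whose levels over the 4 libraries were most like each sum were sought among 13980 genes whose mean count was 50 or more, by Euclidean distance of centred log2 CPM. For Tdpoz they were Rdh1 (distance 0.04), AU019990 (0.12), Zscan4-ps1 (0.12), Zscan4d (0.12) and Zscan4b (0.13). Rdh1, a retinol dehydrogenase gene, had 69, 291, 74 and 211 reads. For Tcstv they were Gm2046 (0.12), Trim75 (0.13), 1700052K11Rik (0.15), Gm31791 (0.19) and Gm6172 (0.19). Trim75, of the tripartite motif family, had 49, 200, 80 and 122 reads. The distance rests on 4 libraries.

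The m6A motif was counted on the sense strand of each transcript. GGAC occurred 2.34 to 4.55 times per kilobase in the 8 members, against a median of 4.05 over 16131 genes. The longer GGACT, which overlaps it, occurred 0 to 3.39 times per kilobase, against a median of 1.04. Tdpoz3 had 5 GGAC and no GGACT in 1098 bases, and Tcstv3 had 2 GGAC, both within GGACT, in 779 bases. AF067063 had the highest density of GGACT, with 3 in 885 bases. These are matches of letters, and methylation at them was not measured in these libraries.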

How the data were processed

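Poly(A)+ RNA of E14 mouse ESCs was sequenced as paired 150-base reads, 1 library per group. The authors deposited 1 table of read counts per gene. The table was made, per the file headers, by featureCounts 2.0.3 from exons of the RefSeq annotation that UCSC gives for mm39, without strand, with single reads of pairs as the unit, and without reads that aligned to several places or overlapped several genes. The labels list fastp 0.19.4, HISAT2 2.2.1 and DESeq2 1.40.2 and the build mm10, which differs from the header. Coordinates of genes are those of the count table. The methods of the study describe replicates, but the labels give 1 library per group.

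Counts were scaled by TMM factors from edgeR 4.0.16 (R 4.3.3) computed over the 18586 genes whose mean count was 10 or more, which were also the genes tested. Log2 ratios include a prior count of 0.5, and calls were set at 2-fold. Of the 8 members, 5 passed; Tdpoz1, Tdpoz2 and Tdpoz5 did not. Intervals of ratios were 95% Clopper-Pearson intervals on read pairs, taken as reads divided by 2, without the prior count; differences between ratios have exact conditional intervals of the odds ratio; levels have exact Poisson intervals. All were computed with scipy 1.17.1 and cover counting error only, since PCR copies are not independent molecules. The steps were tested on simulated counts. Alternative scalings, prior counts, filters and thresholds were tried.

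The members, lists and named genes were chosen with earlier results of these data known. Named genes were the members, other Tdpoz rows, Ythdf2, Spop and Spopl, the 3 nearest unrelated rows on each side of an array, Duxf3, Zscan4c and Zfp352, and the 5 genes most like each sum. Gm21761, Gm20767, AF067061, Gm9113, Gm4982, Gm5852, Gm5773, Gm21378 and Gm20900 were named after their values were seen. Relatives were to be found by protein alignment; no protein sequences were used here, and BLAST 2.17.0 on GENCODE vM21 transcripts took its place, with at least 70% identity over at least 50% of a member. Coding identities are global alignments with Biopython 1.88.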

Additional observations from a re-analysis of the deposited data

How the results depend on the processing

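The log2 ratios of members and of summed arrays stayed within their counting intervals in all 214 values recomputed under DESeq2, total-count and upper-quartile scaling, a prior count of 5, the median of members in place of the sum, and, chosen after seeing the data, with relatives other than Spop and without Tcstv1. Scaling moved none by over 0.05. Counts of all genes past 2-fold depended most on the filter, and the cause was not tested. In the order of the 6 comparisons (knockdown, wild-type and mutant against knockdown, mutant against wild-type, wild-type and mutant against control), where 1320, 1038, 628, 1003, 710 and 1217 genes were counted, a mean count of at least 1 gave 4067, 3687, 3099, 3448, 3097 and 3717, no filter 5322, 4920, 4334, 4610, 4219 and 4898, a mean count of at least 50 497, 332, 76, 321, 109 and 452, and a limit of 1.5-fold 2570, 2071, 1632, 2266, 1724 and 2314. With an interval that also excludes no change they were 944, 688, 273, 645, 288 and 835. A prior count of 5 gave 374 in the mutant against the knockdown and 417 in the wild-type against the control.

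The numbers of members past 2-fold changed where few passed. In the mutant against the knockdown, 1 became 3 with a mean count of at least 1 or with no filter, 0 at a mean of at least 50, and 2 at 1.5-fold. In the mutant against the wild-type, 1 became 2 with DESeq2 size factors, which bring Tdpoz4 past the limit, or with a mean of at least 1, 3 with no filter and 4 at 1.5-fold. In the wild-type against the control, 1 became 0 at a mean of at least 50 or with an interval that excludes no change, and 3 at 1.5-fold. The ratio of summed counts of the 2-cell list in the wild-type against the knockdown was -1.12, against a median of -1.40. The 5 of 5 in the knockdown, in the wild-type against the knockdown and in the mutant against the control was 4 to 7 under the alternatives. The difference between the arrays in the mutant against the knockdown was 0.44 with an interval above 0, and 0.35 with an interval that spanned 0 without Tcstv1.

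No paired analysis was possible because each group had 1 library, and no replicate was there to leave out. Depth limits Tdpoz1, Tdpoz2, Tdpoz5 and Tcstv1, which had at most 43 reads in a library, and the near-identical copies limit Tdpoz3, Tdpoz5 and AF067063. Antisense and overlapping genes are uncertain, since reads were counted without strand.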
